A study of Mus musculus with 10 samples.

Results

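The 38 interferon-stimulated genes described here were chosen by name, and all 38 were found among the 24063 gene symbols of the count tables. Where a symbol had several transcripts, as 12 of the 38 had, the transcript with the most reads over the 10 libraries stood for the gene. The libraries came from quadriceps muscle of wild-type C57BL mice aged 17 to 20 months, 5 in the group called Control and 5 in the group called 1C-MIM. Control animals drank the facility's water, and 1C-MIM animals drank the same water with a supplement of that name for 1 to 3 months, in cages of at most 5 mice. In all 10 animals the tibialis anterior, another leg muscle, had been injured, and the quadriceps used for RNA had not. The sources used here do not give the composition of 1C-MIM, the time from injury to collection or the cage of an animal. The question put to these genes was whether their level in old quadriceps differed with the supplement, and how much it differed between animals.

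Interferons are secreted proteins that warn cells of infection. Type I interferons act through the receptor chains IFNAR1 and IFNAR2 and the kinases JAK1 and TYK2, which activate a complex that holds STAT2 and IRF9. That complex binds the interferon-stimulated response element (ISRE) in the promoters of its target genes. Interferon gamma acts through its own receptor, JAK1 and JAK2, and many of its target genes carry the gamma-activated site (GAS). The target genes encode enzymes and binding proteins that hinder viral replication, sensors of foreign nucleic acid, and factors that raise or end the response. In uninfected tissue most of them are kept at low levels, and resident macrophages and other immune cells carry part of that RNA.

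The promoters of 6 members are shown because between them they hold both kinds of element and belong to genes the results turn on. Each is the 300-base window of RefSeq, build GRCm38.p6, from 250 bases before to 50 bases after the annotated start, written 5′ to 3′ on the strand of the gene. Capitals mark every match to the ISRE core (GAAA, 2 bases of any kind, then GAAAC) or to the GAS core TTCNNNGAA, on either strand. In Isg15 and Gbp3 a pair of overlapping ISRE matches forms 1 run of capitals, and in Bst2 a GAS match runs into an ISRE match. Irf8 and Gbp3 have 2 annotated windows each, of which the one with matches is shown. The other window of each holds no match.
Isg15 (chr4:156200769-156201068, minus strand): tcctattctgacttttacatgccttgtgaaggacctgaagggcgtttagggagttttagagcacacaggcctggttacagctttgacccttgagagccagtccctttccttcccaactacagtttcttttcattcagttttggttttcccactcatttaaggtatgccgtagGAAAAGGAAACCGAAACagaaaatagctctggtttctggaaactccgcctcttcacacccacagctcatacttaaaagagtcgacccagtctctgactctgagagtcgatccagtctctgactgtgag
Bst2 (chr8:71537423-71537722, minus strand): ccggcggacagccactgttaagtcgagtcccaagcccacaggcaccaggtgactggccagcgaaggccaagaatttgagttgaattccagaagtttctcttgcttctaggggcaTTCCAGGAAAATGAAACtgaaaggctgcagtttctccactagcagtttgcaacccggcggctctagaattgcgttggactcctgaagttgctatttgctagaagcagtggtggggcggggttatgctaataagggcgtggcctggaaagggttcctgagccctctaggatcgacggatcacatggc
Gbp3 (chr3:142559794-142560093, plus strand): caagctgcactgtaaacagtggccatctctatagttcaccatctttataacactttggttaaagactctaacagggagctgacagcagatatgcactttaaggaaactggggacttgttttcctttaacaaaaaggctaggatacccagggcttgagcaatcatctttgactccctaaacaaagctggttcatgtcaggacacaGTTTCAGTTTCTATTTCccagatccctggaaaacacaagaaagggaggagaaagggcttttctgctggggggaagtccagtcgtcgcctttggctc
Oas1a (chr5:120907476-120907775, minus strand): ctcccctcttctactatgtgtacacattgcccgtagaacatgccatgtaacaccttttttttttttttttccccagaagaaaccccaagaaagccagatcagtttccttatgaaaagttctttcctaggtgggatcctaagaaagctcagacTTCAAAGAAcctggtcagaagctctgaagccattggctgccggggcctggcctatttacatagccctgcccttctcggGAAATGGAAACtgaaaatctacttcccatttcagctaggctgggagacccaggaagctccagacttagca
Irf8 (chr8:120736108-120736407, plus strand): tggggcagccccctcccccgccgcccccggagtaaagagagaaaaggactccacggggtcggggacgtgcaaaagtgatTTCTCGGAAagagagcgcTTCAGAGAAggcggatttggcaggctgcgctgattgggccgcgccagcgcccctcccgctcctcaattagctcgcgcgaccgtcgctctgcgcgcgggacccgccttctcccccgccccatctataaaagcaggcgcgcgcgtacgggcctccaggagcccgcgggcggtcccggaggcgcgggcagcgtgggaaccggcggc
Ifi35 (chr11:101448162-101448461, plus strand): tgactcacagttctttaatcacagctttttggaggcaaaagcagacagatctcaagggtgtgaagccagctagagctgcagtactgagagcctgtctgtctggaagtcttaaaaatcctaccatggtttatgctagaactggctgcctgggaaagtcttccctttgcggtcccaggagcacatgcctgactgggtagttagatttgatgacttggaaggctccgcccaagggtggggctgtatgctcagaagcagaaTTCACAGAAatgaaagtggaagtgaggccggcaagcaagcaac
Of the 38 members, 30 had a promoter in the RefSeq table; Oas2, Mx1, Mx2, Usp18, Parp9, Parp14, Zbp1 and Rtp4 had none there. The ISRE core was found in 12 of these 30 genes, against 0.944% of the 27025 genes in the table. The GAS core was found in 10 of 30, against 9.55% of all genes in the table. Oas1a, Bst2, Gbp7 and Eif2ak2 held both, and 12 members held neither in this window. A match is a run of letters and does not show that a factor was bound there.

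The transcripts kept for the genes held 28521254 to 31771296 counts per library, and Control and 1C-MIM did not separate in these totals. A member had between 8 reads (Ifi44) and 1285 reads (Samhd1) in a library, and together the 38 made up 0.0219 to 0.0328% of these kept counts. Over all tested genes Control 5 was the highest of the 10 libraries for 19.6% and the lowest for 23.8%, the largest shares of any library, and Control 1 and Control 5 stood apart in an earlier analysis of these data. The myofibre, the cell type of the label, was represented by 8 genes, of which 4 (Myh4, Myh1, Ttn and Atp2a1) were higher in 1C-MIM and 0 lower. They summed to between 187400 and 209600 counts per 1000000 (CPM, scaled by TMM factors) in Control and between 211000 and 242600 CPM in 1C-MIM, without overlap. Markers of other cells were present too, and several of their lists also differed between the groups. Of 15 macrophage and monocyte genes, 13 were lower in 1C-MIM and 2 were not past the test. These 2 were Mrc1 (log2 fold change -0.22, SE 0.17) and Cd163 (0.19, SE 0.17). The summed level of the 15 was 304 to 580 CPM in Control and 173 to 250 CPM in 1C-MIM, with no marker at 0. Of 10 lymphocyte genes tested, 7 were lower, and the 15 in the tables summed to 21.9 to 43.1 CPM in Control and 11.1 to 16.3 CPM in 1C-MIM. Among 8 endothelial genes 6 were higher and 0 lower, with sums of 223 to 297 CPM in Control and 305 to 360 CPM in 1C-MIM. Of 6 fibro-adipogenic genes 4 were lower and 0 higher, with sums of 620 to 793 CPM in Control and 504 to 764 CPM in 1C-MIM. Of 7 dendritic cell genes tested, 1 was lower (Itgax) and 0 higher. The 8 in the tables summed to 9.80 to 11.8 CPM in Control and 8.08 to 12.05 CPM in 1C-MIM, with overlap. Of 2 granulocyte genes tested, 0 were lower and 0 higher. In bulk tissue, fewer cells of a type and less RNA per cell cannot be told apart, and the part of these cells in the results for the members was not tested.

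Interferon-stimulated genes were expressed at low levels in this muscle. Levels of different genes are compared here only in the deposited FPKM, which divides by transcript length. Bst2, which encodes tetherin, the membrane protein that holds budding virus on the cell surface, was the highest, with 8.71 ± 1.4 FPKM in Control and 6.32 ± 1.2 FPKM in 1C-MIM (mean ± SD, n = 5 per group throughout). It was followed by Ifi35, a leucine zipper protein that binds its partner Nmi (6.49 ± 0.26 FPKM in Control), and Samhd1, an enzyme that breaks down deoxynucleotides (4.88 ± 0.47 FPKM in Control). Irf1, Gbp2 and Sp100 came next at a Control mean of 3.66, 2.48 and 2.53 FPKM, and the SDs of Gbp2 and Sp100 overlapped. At the lower end stood Oas1a (0.339 ± 0.077 FPKM in Control), Herc6 (0.175 ± 0.023), Mx2 (0.136 ± 0.046), Mx1 (0.131 ± 0.044) and Ifi44 (0.0841 ± 0.037), and the last 3 did not differ beyond their spread. The median member had a mean level of 0.932 FPKM, against 2.32 FPKM for the median tested gene, and 32 of 38 members lay below the latter. By CPM, which does not divide by length, Samhd1 was first, Ifi35 the fourth and Bst2 the eighth.

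**Figure D1:**
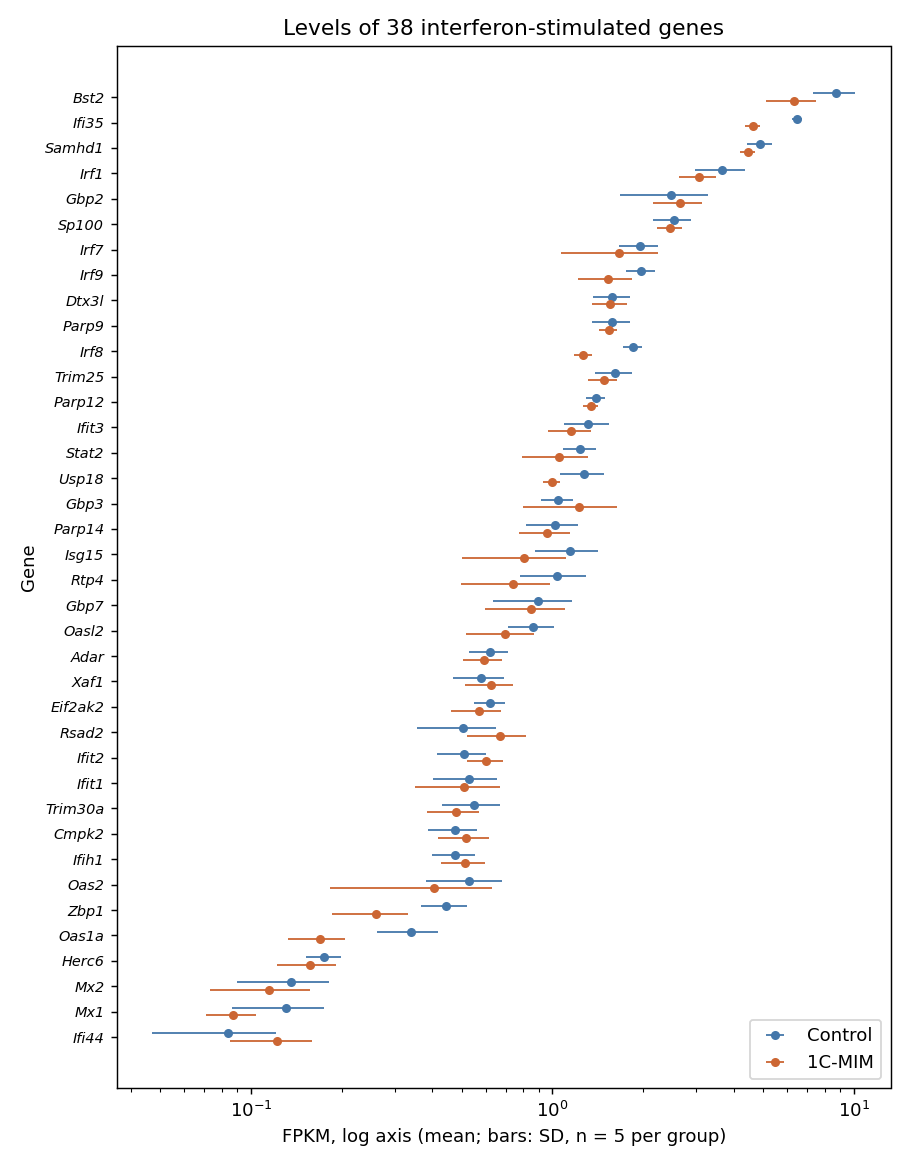
Mean FPKM of the 38 genes on a log axis, with Control in blue and 1C-MIM in orange and bars for the SD of 5 libraries. Bst2, Ifi35 and Samhd1 lie at the top, most genes between 0.4 and 3 FPKM, and Mx1, Mx2 and Ifi44 at the bottom. The bars of the groups do not meet for Ifi35, Irf8, Oas1a and Zbp1.

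The comparison of 1C-MIM with Control called 4 members lower and 0 higher, and 34 were not past the test. The 4 were Ifi35, Irf8, Oas1a and Zbp1. All 38 members passed the filter on low counts. A gene was called when its Benjamini-Hochberg adjusted p in edgeR's quasi-likelihood test was under 0.05 over all 13880 tested genes. By this rule 21.6% of all tested genes were called, 9.78% higher and 11.8% lower, while 10.5% of the members were called, all of them lower. The share of members called lower was thus near the background of 11.8%. Unadjusted p-values were under 0.05 for 7 members with a negative fold change, or 18.4%, against 19.6% of all tested genes. They were under 0.05 for 2 members with a positive one, or 5.26%, against 17.9% of all tested genes. The median log2 fold change was -0.09 over the members and 0.00 over all tested genes, and 25 members had a negative and 13 a positive value. The members' median moved to -0.16 without 1C-MIM 3, -0.04 without Control 3, -0.05 without 1C-MIM 1 and -0.06 without 1C-MIM 5, and to -0.16 when corrected for transcript length. When only library totals were used to scale, 606 of all tested genes were higher and 2896 lower, against 1357 and 1642 with TMM factors; 5 members were then lower, with Bst2 as the fifth, and 30 of 38 members had a negative value, while the median moved to -0.16 over the members and to -0.07 over all genes. Control and 1C-MIM did not overlap in 2 members, Ifi35 and Irf8, or 5.26%, against 14.6% of all tested genes and 7.98% with 1C-MIM as the lower group.

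**Figure D2:**
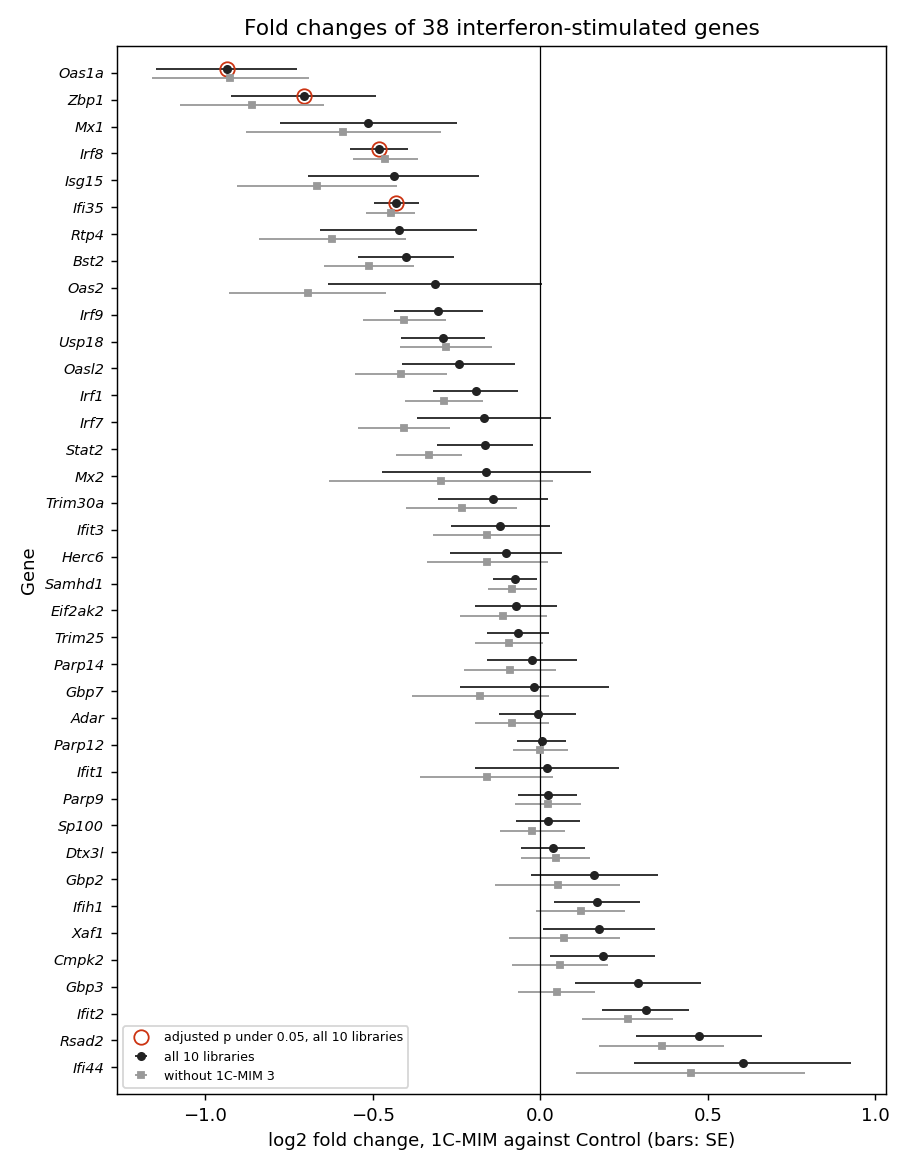
Log2 fold change of each gene, 1C-MIM against Control, with bars for the SE; black points use all 10 libraries, grey squares leave out 1C-MIM 3, and red rings mark an adjusted p under 0.05 with all libraries. Ifi35, Irf8, Oas1a and Zbp1 carry rings, and the grey squares of Oas2, Irf7, Isg15 and Stat2 lie to the left of their black points.

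Ifi35 fell from 16.1 ± 0.939 to 11.9 ± 0.589 CPM, which is -0.43 on the log2 scale (SE 0.07, adjusted p = 0.00136 in edgeR's test), or 0.743 of the Control level. Control 1 to 5 held 15.6, 15.2, 15.9, 15.9 and 17.7 CPM, and 1C-MIM 1 to 5 held 11.4, 11.3, 12.7, 12.0 and 12.3 CPM. All 5 1C-MIM libraries thus lay below all 5 Control libraries. When each library's trend with transcript length was taken out, the log2 fold change was -0.28 (SE 0.06, adjusted p = 0.00861 in edgeR); the transcript has 1360 bases, against a median of 2868 bases over the members. Exons of Ifi35 overlap those of an antisense RNA, Gm11626, in GENCODE M21, and no source used here gives the strandedness of the counting, so their reads cannot be told apart.

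Irf8, a transcription factor that macrophages, dendritic cells and B cells need to develop, fell from 9.49 ± 0.689 to 6.81 ± 0.619 CPM. Its log2 fold change was -0.48 (SE 0.09, adjusted p = 0.00301 in edgeR). Control libraries held 8.52, 10.3, 9.57, 9.17 and 9.86 CPM in the order of their numbers, and 1C-MIM libraries held 7.50, 6.49, 6.58, 6.07 and 7.41 CPM. Here too the groups did not overlap, and the spread within each was small. It was the only one of the 5 transcription factors to pass the test. Macrophage and lymphocyte marker sums moved the same way without overlap, as given above, whereas the dendritic cell marker sums of the groups overlapped. The part of these cells in the fall of Irf8 was not tested.

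Oas1a, an oligoadenylate synthetase that activates RNase L when it binds viral RNA, fell from 1.16 ± 0.245 to 0.605 ± 0.129 CPM, with a log2 fold change of -0.93 (SE 0.21) and an adjusted p of 0.00916 in edgeR's test. Its values were 1.40, 0.815, 1.39, 1.12 and 1.08 CPM in Control 1 to 5 and 0.518, 0.515, 0.598, 0.567 and 0.827 CPM in 1C-MIM 1 to 5. Only 1C-MIM 5 reached the lowest Control library, Control 2. The counts behind these values were 15 to 45 reads per library. Oas1g, a close relative, had 52 reads over all libraries and was not tested, and no member had counts within 1% of another symbol's. Of the other OAS members, Oas2 (log2 fold change -0.31, SE 0.32) and Oasl2 (-0.24, SE 0.17) were not past the test.

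Zbp1, a sensor of left-handed nucleic acid that can start cell death, had 1.61 ± 0.274 CPM in Control and 0.984 ± 0.303 CPM in 1C-MIM (-0.71 on the log2 scale, SE 0.22, adjusted p = 0.0327 in edgeR's test). Control 1 to 5 held 1.85, 1.17, 1.76, 1.51 and 1.75 CPM and 1C-MIM 1 to 5 held 1.14, 0.824, 1.40, 0.6 and 0.959 CPM, so that 1C-MIM 3 lay above Control 2. This call was lost under 9 of 21 alternatives. It was lost without Control 1, 3, 4 or 5 or without 1C-MIM 2, 4 or 5 (adjusted p = 0.0544 to 0.0845), when Control 1 and Control 5 were both left out (adjusted p = 0.129) and after correction for transcript length (adjusted p = 0.0563). The calls of Ifi35, Irf8 and Oas1a held under every alternative that tested them. Without Control 1 and Control 5 the log2 fold changes were -0.39 for Ifi35, -0.51 for Irf8, -0.87 for Oas1a and -0.59 for Zbp1. Animal numbers in the deposited names begin with 2 for 3 animals of each group and with 3 for 2 of each, and what the digit stands for is not given. Within these series the log2 fold changes were -0.40 and -0.47 for Ifi35, -0.46 and -0.50 for Irf8, -1.14 and -0.65 for Oas1a and -0.50 and -1.06 for Zbp1, in that order.

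**Figure D3:**
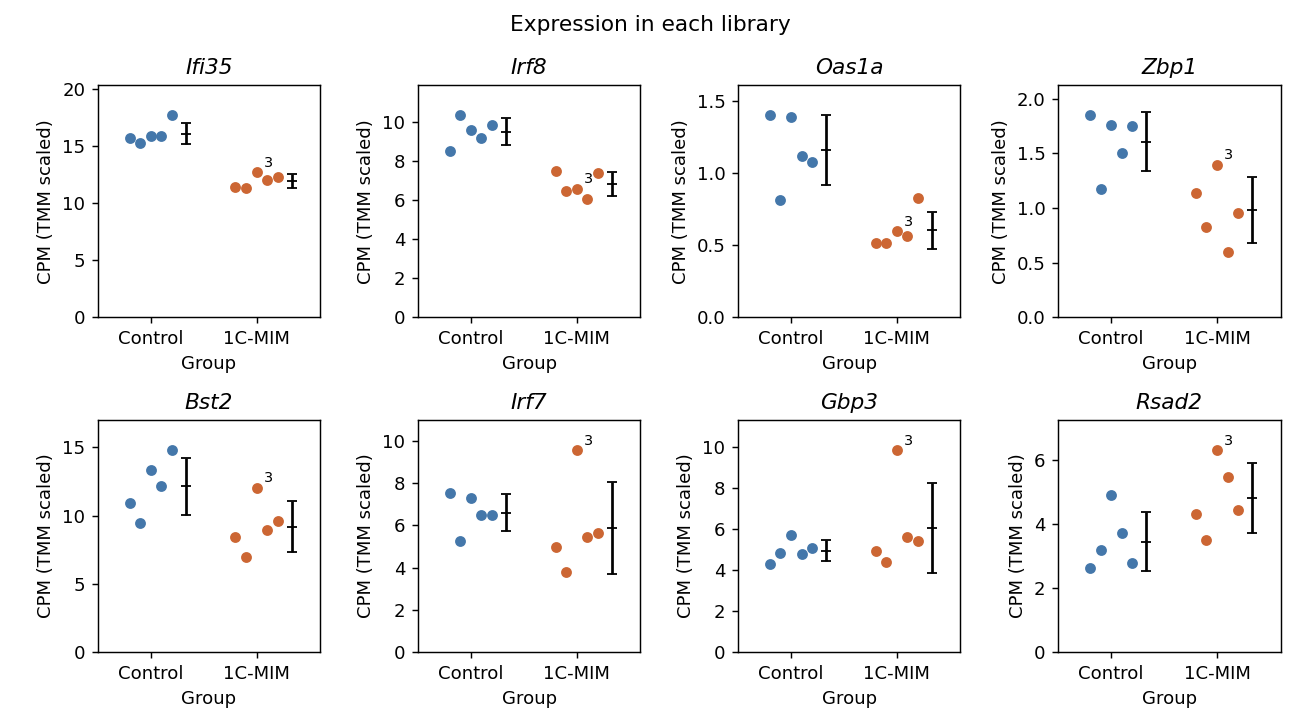
CPM of 8 genes in each library, Control in blue and 1C-MIM in orange, with the mean and SD of 5 libraries in black beside them and the point of 1C-MIM 3 numbered. Ifi35 and Irf8 show no overlap of the groups, and in Irf7, Gbp3 and Rsad2 the highest point is 1C-MIM 3.

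Apart from Irf8, the transcription factors of the response had lower means in 1C-MIM, with overlapping groups. Stat2, which carries the activating part of the type I complex, held 10.9, 9.10, 11.0, 8.94 and 9.32 CPM in Control 1 to 5 and 7.05, 7.56, 12.8, 8.47 and 8.17 CPM in 1C-MIM 1 to 5. The other 4 1C-MIM libraries lay below every Control library while 1C-MIM 3 lay above all of them, and the log2 fold change was -0.16 (SE 0.14, adjusted p = 0.422 in edgeR). Irf9, the DNA-binding part of the same complex, held 9.14, 7.70, 9.76, 9.97 and 9.12 CPM in Control and 6.70, 5.25, 9.53, 7.84 and 7.67 CPM in 1C-MIM (-0.30 on the log2 scale, SE 0.13, adjusted p = 0.114 in edgeR). Irf7, the factor that amplifies interferon production, held 7.53, 5.25, 7.29, 6.48 and 6.50 CPM in Control and 4.97, 3.81, 9.56, 5.44 and 5.62 CPM in 1C-MIM (-0.17, SE 0.20, edgeR adjusted p = 0.572). In all 3 genes 1C-MIM 2 or 1C-MIM 1 was the lowest library and 1C-MIM 3 the highest of its group. Irf1, a factor induced strongly by interferon gamma, ranged from 11.2 to 16.6 CPM in Control and from 11.0 to 15.8 CPM in 1C-MIM (-0.19, SE 0.13, edgeR adjusted p = 0.283). Exons of Irf1, Irf7 and Irf9 overlap those of Gm17334, Phrf1 and Rnf31 in the annotation, so a part of their reads may be uncertain. Such overlaps were found for 15 members. They include Usp18, Eif2ak2 and Adar, and the overlap of Adar with Chrnb2 was the longest, at up to 1014 bases.

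The ISG15 system showed no call. Isg15, the ubiquitin-like protein that is joined to other proteins in the response, held 2.09, 1.08, 1.67, 1.44 and 1.62 CPM in Control 1 to 5 and 1.07, 0.584, 1.86, 1.17 and 1.12 CPM in 1C-MIM 1 to 5. Its log2 fold change was -0.44 (SE 0.26, adjusted p = 0.228 in edgeR), and the groups overlapped through Control 2 and 1C-MIM 3. Usp18, which removes ISG15 and damps the receptor, held 4.62, 3.06, 4.63, 4.07 and 4.07 CPM in Control and 3.52, 3.06, 3.32, 3.13 and 3.70 CPM in 1C-MIM (-0.29, SE 0.12, edgeR adjusted p = 0.106). All 5 1C-MIM libraries lay below the Control mean of Usp18, and Control 2 lay among them; without Control 2 the gene was called (-0.38, edgeR adjusted p = 0.0262). Herc6, a ligase that attaches ISG15 in mice, had 1.68 ± 0.225 CPM in Control and 1.57 ± 0.326 CPM in 1C-MIM.

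Among the proteins that bind or cut foreign RNA, most differences were small. Ifit3, an adaptor of the IFIT complex on viral RNA, held 4.00, 4.27, 5.90, 4.58 and 5.12 CPM in Control and 5.01, 3.12, 4.95, 3.94 and 4.99 CPM in 1C-MIM (-0.12 on the log2 scale, SE 0.15, adjusted p = 0.587 in edgeR). Ifit1, which binds RNA that lacks the host cap mark, had 2.53 ± 0.561 CPM in Control and 2.56 ± 0.833 CPM in 1C-MIM. For Ifit2 all 5 1C-MIM libraries (3.77 to 5.25 CPM) lay above the Control mean of 3.63 CPM, with a log2 fold change of 0.31 (SE 0.13, adjusted p = 0.0966 in edgeR). The 3 genes lie close together on chromosome 19, with Ifit2 and Ifit3 side by side, and their fold changes did not share a sign. Eif2ak2, the kinase PKR that stops translation, held 5.03, 4.96, 5.31, 4.97 and 4.17 CPM in Control and 3.59, 5.50, 5.21, 4.77 and 4.20 CPM in 1C-MIM (-0.07, SE 0.12, edgeR adjusted p = 0.7). Adar, which edits adenosine to inosine in paired RNA, held 5.89, 6.13, 7.57, 7.57 and 6.19 CPM in Control and 5.63, 6.83, 8.10, 6.57 and 6.05 CPM in 1C-MIM (-0.01, SE 0.12, edgeR adjusted p = 0.971). For both genes the groups overlapped over most of their range. Ifih1, which encodes the RNA sensor MDA5, had 4.76 ± 0.698 CPM in Control and 5.36 ± 0.777 CPM in 1C-MIM.

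Rsad2, which encodes viperin, an enzyme that makes a chain-ending nucleotide, and Cmpk2, a nucleotide kinase that supplies its substrate, are neighbours on chromosome 12. Rsad2 held 2.64, 3.20, 4.91, 3.72 and 2.79 CPM in Control 1 to 5 and 4.32, 3.50, 6.31, 5.47 and 4.43 CPM in 1C-MIM 1 to 5. All 5 1C-MIM libraries were above the Control mean, and the log2 fold change was 0.47 (SE 0.19, adjusted p = 0.0844 in edgeR); without Control 3 it was 0.64 and called (edgeR adjusted p = 0.0273). Cmpk2 had 2.75 ± 0.469 CPM in Control and 3.13 ± 0.618 CPM in 1C-MIM. Bst2 held 10.9, 9.46, 13.3, 12.2 and 14.8 CPM in Control and 8.43, 6.97, 12.1, 8.94 and 9.62 CPM in 1C-MIM (-0.40 on the log2 scale, SE 0.14, adjusted p = 0.0623 in edgeR). All 1C-MIM libraries were below the Control mean of Bst2, and 1C-MIM 3 and 1C-MIM 5 lay above Control 2. Bst2 was called under 5 of 21 alternatives, and corrected for transcript length its value was -0.20 (SE 0.13, adjusted p = 0.315). Samhd1 held 33.5, 32.5, 39.7, 34.2 and 38 CPM in Control and 32.9, 34.8, 35.0, 31.7 and 34.6 CPM in 1C-MIM (-0.07, SE 0.07, edgeR adjusted p = 0.427). Its groups overlapped over most of their range, with Control 3 and Control 5 above the rest.

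The guanylate-binding proteins, GTPases that attack the membranes around microbes inside cells, are encoded near each other on chromosome 3. Gbp3 held 4.31, 4.83, 5.71, 4.78 and 5.08 CPM in Control 1 to 5 and 4.94, 4.40, 9.86, 5.64 and 5.42 CPM in 1C-MIM 1 to 5. Its log2 fold change of 0.29 (SE 0.19, adjusted p = 0.277 in edgeR) was 0.05 (SE 0.12) without 1C-MIM 3. Gbp2 ranged from 8.04 to 15.4 CPM in Control and from 10.03 to 16.2 CPM in 1C-MIM, and Gbp7 from 5.59 to 11.0 CPM and from 6.49 to 12.9 CPM. In all 3 the highest of the 10 libraries was 1C-MIM 3. The MX GTPases were near the limit of detection, with 9 to 31 reads per library for Mx1 and 10 to 25 for Mx2. Mx1 had 0.664 ± 0.218 CPM in Control and 0.464 ± 0.0962 CPM in 1C-MIM (-0.51, SE 0.26, edgeR adjusted p = 0.172), and in most inbred laboratory strains this gene carries a deletion that inactivates its protein.

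Without correction for transcript length, the PARP, TRIM and nuclear body genes differed little between the groups. Parp9 and Dtx3l, whose products form a complex of an ADP-ribosyltransferase relative with a ubiquitin ligase, lie side by side on chromosome 16 with overlapping exons on opposite strands. Parp9 had 10.2 ± 1.23 CPM in Control and 10.4 ± 0.540 CPM in 1C-MIM (log2 fold change 0.02, SE 0.09), and Dtx3l had 14.9 ± 1.75 and 15.3 ± 1.51 CPM (0.04, SE 0.09). Parp14, their neighbour, was at -0.02 (SE 0.14). Parp12, which modifies proteins of the Golgi, varied least, from 7.43 to 8.68 CPM in Control and from 7.91 to 8.52 CPM in 1C-MIM (0.01, SE 0.07). Trim25, a ligase that acts with the sensor RIG-I, was at -0.07 (SE 0.09), Trim30a at -0.14 (SE 0.16) and the nuclear body gene Sp100 at 0.02 (SE 0.09). With adjusted p of 0.56 to 0.966 in edgeR these 7 genes were not past the test. For the 5 with an SE under 0.1, the standard error was small against the fall of Ifi35 in the same fit. Corrected for transcript length, Parp14 was at -0.23 (SE 0.13), Trim25 at -0.21 (SE 0.09) and Trim30a at -0.20 (SE 0.16), beside -0.28 for Ifi35. Parp9, Parp12, Dtx3l and Sp100 then lay between -0.08 and 0.09, and none of the 7 was past the test. Of the remaining members, Ifi44 had the largest positive value, 0.60 (SE 0.33), at 8 to 29 reads per library; Xaf1, a binding partner of the apoptosis inhibitor XIAP, was at 0.18 (SE 0.17) and Rtp4, a chaperone of membrane receptors, at -0.42 (SE 0.23).

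Individual animals differed more than the groups did in many members, and 1 library stood out. 1C-MIM 3 had the highest CPM of all 10 libraries in 15 of 38 members, or 39.5%, against 9.61% of all tested genes. The 15 were Stat2, Irf7, Ifit1, Ifit2, Oas2, Oasl2, Rsad2, Ifi44, Ifih1, Gbp2, Gbp3, Gbp7, Xaf1, Adar and Cmpk2. Within its own group it was the highest in 28 of 38, against 17.2% of all tested genes. Control 3 was the highest of all in another 10 members, among them Irf1, Ifit3, Usp18 and Samhd1, and in 8.43% of all tested genes. At the other end, 1C-MIM 2 was the lowest of all in 13 members and Control 2 in 8, against 16.5% and 4.52% of all tested genes. Relative to each gene's mean log2 CPM over the 10 libraries, the median member was at 0.28 in 1C-MIM 3, 0.24 in Control 3, -0.27 in 1C-MIM 2 and -0.22 in Control 2. The same median over all tested genes lay between -0.01 and 0.02 in the 10 libraries. Each group thus held a library in which these genes were high and at least 1 in which they were low. In 1C-MIM 1 the median member was at -0.18, and 7 of 38 members lay above their own mean, against 11 in 1C-MIM 2. Summed over the 38, 1C-MIM 1 was the lowest of the 10 libraries with 233 CPM. Control 2 and 1C-MIM 2 each had 241 CPM. The high libraries, Control 3 and 1C-MIM 3, carried the same number. Among the low ones, Control 2 and 1C-MIM 2 did so, while 1C-MIM 1 did not share its number with a low library. What same-numbered libraries had in common was not given in the sources used here. Over all tested genes, their deviations from group means correlated at -0.0752 for number 1 to 0.387 for number 5. For numbers 2 and 3 the correlations were 0.119 and 0.0644. A factor shared by number was not tested.

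**Figure D4:**
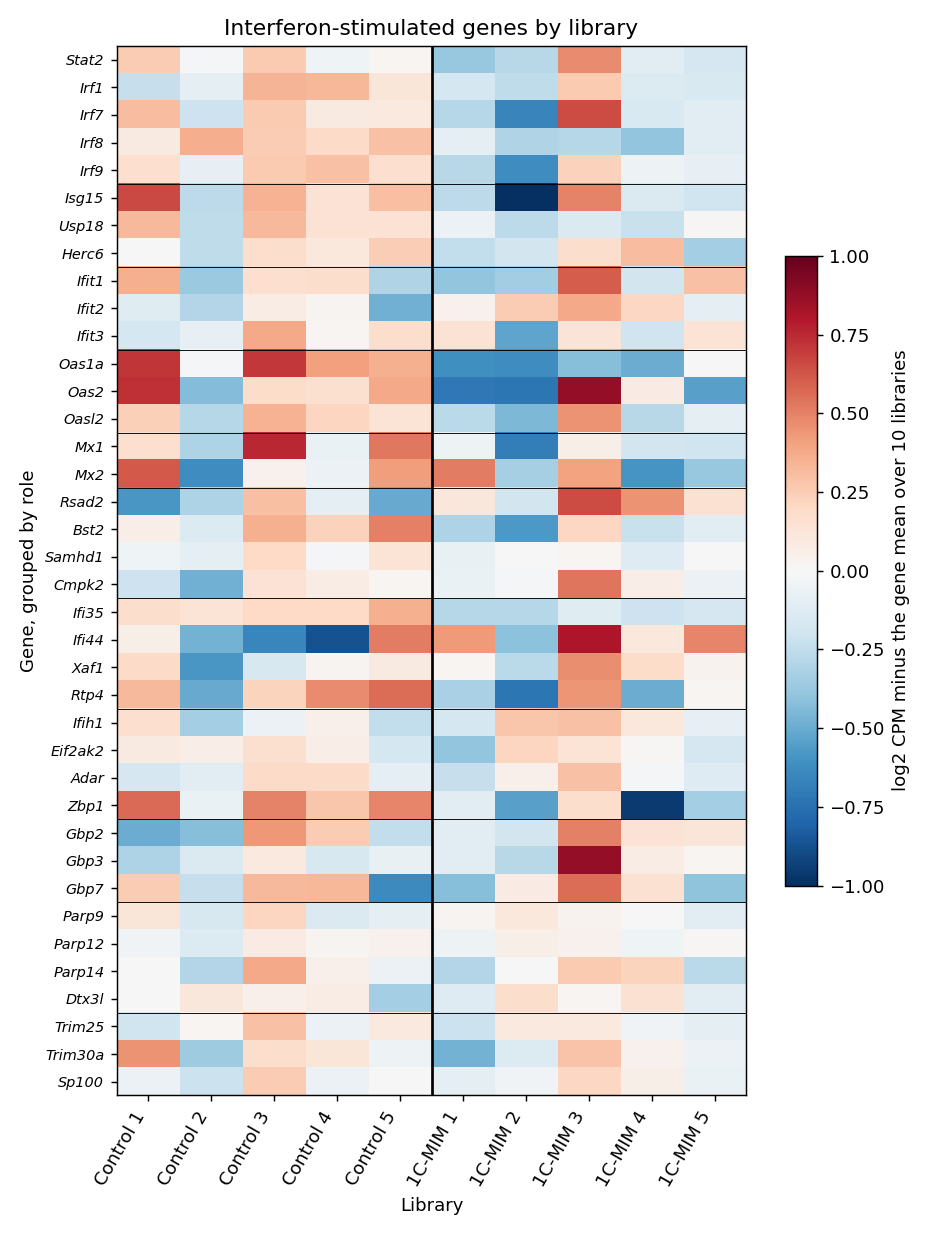
Log2 CPM of each gene minus its mean over the 10 libraries, in red where above and blue where below, with genes in rows by role and libraries in columns; the black line parts Control from 1C-MIM, and the colour scale ends at 1 either way. The columns of Control 3 and 1C-MIM 3 are mostly red, with 35 and 34 of 38 genes above their mean, and those of Control 2 and 1C-MIM 1 mostly blue.

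Oas2, named after its values were seen, lay with Gbp3 furthest above its mean log2 CPM in 1C-MIM 3 among the members, at 0.88 for each. Oas2 held 5.20, 2.28, 3.55, 3.49 and 4.07 CPM in Control 1 to 5 and 1.86, 1.85, 5.78, 3.30 and 2.12 CPM in 1C-MIM 1 to 5. Its log2 fold change was -0.31 (SE 0.32, adjusted p = 0.498 in edgeR), and -0.69 (SE 0.23, adjusted p = 0.0664) without 1C-MIM 3. Without that library 7 members were lower, or 18.4%, against 7.57% of the genes tested in that fit. Besides Ifi35, Irf8, Oas1a and Zbp1 these were Stat2 (-0.33, SE 0.10, adjusted p = 0.0427), Irf9 (-0.41, SE 0.12, adjusted p = 0.0468) and Bst2 (-0.51, SE 0.13, adjusted p = 0.0273). Leaving out any other single library gave 3 to 6 members lower. 1C-MIM 3 was singled out after the levels of these members were seen. The summed macrophage markers were highest of the 1C-MIM group in 1C-MIM 3 (250 CPM, against 173 to 244 CPM in the other 4). In Control they were highest in Control 3 (580 CPM) and lowest in Control 2 (304 CPM). These were the Control libraries in which the members were high and low. Of the 1C-MIM libraries low for the members, 1C-MIM 1 had the lowest macrophage sum of the 10 libraries (173 CPM), whereas 1C-MIM 2 had 242 CPM. The summed lymphocyte markers of 1C-MIM 3 (11.1 CPM) were the lowest of the 10 libraries. The part of other cells in the high and low values of these libraries was not tested.

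RNA of the 10 interferon genes in the list used here was almost absent, and interferon genes outside that list were not examined. Of the 10, 7 had 0 reads in all libraries. For each of these, that allows up to 0.00994 CPM over the 10 libraries together (3 counts, counting error only). Ifng had 9 reads in all, and Ifnb1 and Ifnl3 1 read each, so none was tested. Of 10 genes for receptors and their kinases 9 were tested, and Ifnlr1, the receptor chain for interferon lambda, had 1 to 6 reads per library and was not. Of the 9 tested 1 was lower, or 11.1% against 11.8% of all genes, namely Il10rb, the chain shared by the receptors for interferon lambda and interleukin 10 (10.6 ± 0.843 CPM in Control and 8.20 ± 0.528 CPM in 1C-MIM; -0.37 on the log2 scale, SE 0.08, adjusted p = 0.00757 in edgeR). Ifnar1 (-0.09, SE 0.08), Ifnar2 (-0.18, SE 0.10), Ifngr1 (-0.01, SE 0.07), Jak1 (0.16, SE 0.07) and Tyk2 (0.07, SE 0.09) were not past the test.

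Most of the listed inhibitors were lower in 1C-MIM. Of 7 in the list, 5 were lower, 1 higher (Pias1, 0.36, SE 0.09) and 1 not past the test (Irf2, 0.01, SE 0.07). That is 71.4% lower against 11.8% of all genes. The lists in this paragraph were chosen with earlier results of these data known. Their shares are therefore a description and no independent test against all genes. Socs1, the inhibitor of JAK kinases that ends interferon signalling, had 7.71 ± 6.82 CPM in Control and 0.578 ± 0.157 CPM in 1C-MIM (log2 fold change -3.72, SE 0.68), and Socs3 had 28.1 ± 11.1 and 2.71 ± 0.357 CPM (-3.37, SE 0.25). The fall of Socs1 and Socs3 stood beside the fall of the macrophage and lymphocyte markers, whose part in it was not tested. The phosphatase genes Ptpn6 (-1.25, SE 0.22) and Ptpn2 (-0.30, SE 0.07) and the inhibitor gene Cish (-1.03, SE 0.31) were lower as well. Of 15 tested sensors and adaptors, 4 were lower, or 26.7% against 11.8% of all genes, and 0 higher, against 9.78%. They were Tmem173, which encodes the DNA-response adaptor STING (-0.80, SE 0.14), the Toll-like receptor adaptor Myd88 (-0.64, SE 0.09), the DNA exonuclease Trex1 (-0.25, SE 0.08) and Rnaseh2a (-0.31, SE 0.07). Ddx58, which encodes the RNA sensor RIG-I (-0.05, SE 0.11), and the adaptor Mavs (0.13, SE 0.06) were not past the test. Among 6 sensor kinases and factors, Irf5 (-0.61, SE 0.10) and Ikbke (-0.88, SE 0.26) were lower, or 33.3% against 11.8% of all genes, and Tbk1, Irf3, Traf3 and Traf6 were not past the test.

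A further 57 interferon-stimulated genes outside the 38 were in the tables, and 54 of them were tested. In this list 12 genes fell, 1 rose and 41 did not pass the test, with a median log2 fold change of -0.21, beside 4 lower and a median of -0.09 for the 38. The genes that fell made up 22.2% of those tested, against 11.8% of all genes, and the 1 that rose 1.85%, against 9.78%. This list too was chosen with earlier results of these data known, so these shares are no independent test. The lower genes included Ifi27l2a, which went from 38.1 ± 5.06 to 19.9 ± 2.28 CPM (-0.94, SE 0.10, adjusted p = 0.000116 in edgeR's test), Oas3 (-1.32, SE 0.31), Slfn1 (-1.37, SE 0.37), Slfn2 (-0.87, SE 0.22) and the class I heavy chain H2-D1 (-0.42, SE 0.09). The gene that rose was Gbp5, a relative of the Gbp members (3.51 ± 1.23 to 5.89 ± 1.75 CPM; 0.74, SE 0.24, edgeR adjusted p = 0.0448). The chemokine gene Cxcl10 (-0.70, SE 0.29) and the antiviral membrane protein gene Ifitm3 (-0.24, SE 0.10) were not past the test.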

How the data were processed

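RNA of 10 quadriceps samples was measured, and groups were taken from the titles. Each deposited table lists 33984 RefSeq transcripts with, per the file headers, 3 values: a TPM, an FPKM and a count. The submitters' processing notes name build GRCm39 and the tools STAR, featureCounts, DESeq2 1.28.0, Salmon 1.5.2, Subread 2.0.1, StringTie 2.2.1, Trim Galore 0.6.7, bedtools 2.30.0, Picard 2.27.4 and SAMtools 1.15.1, with no role or order. The deposited counts are raw whole numbers. From their values, isoforms of a gene share reads in them, so 1 transcript was kept per symbol; 45.3 to 47.4% of a library's counts lay on other transcripts. To set levels of different genes side by side, the deposited FPKM was used, which, from its values, the authors scaled by transcript length and library total. The TPM column, which the authors scaled to an equal total per library, was not used.

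Genes were filtered with filterByExpr, scaled with TMM and tested with edgeR 4.0.16 (R 4.3.3, quasi-likelihood, robust) without covariates; fold changes used a prior count of 0.125 and log2 CPM a prior count of 2. The SE is the absolute log2 fold change over the square root of F. The test was checked on simulated counts. Alternatives were other scalings and filters, DESeq2 1.42.0, limma-voom 3.58.1, blocks, left-out libraries, a length trend removed as offsets, and summed transcripts. Members past the threshold were named in full, with 8 fixed members of the core pathway and the 3 with the highest FPKM; Rsad2, Gbp3 and Oas2 were added after their values were seen. The members, the lists and these rules were chosen with earlier results of these data known. Each library carries an animal number of its own in the deposited names, so n counts animals; litter, cage and sequencing batch were not given in the sources used here. Same-numbered libraries of the groups were checked for pairing, and the main test did not pair them. Coordinates in GRCm38.p6 belong only to the RefSeq promoters; GENCODE M21 (GRCm38) served for names of overlapping genes.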

Additional observations from a re-analysis of the deposited data

Results flagged for a closer look

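In 7 of 76 groups of 5 libraries, or 9.21%, 1 library lay apart from the other 4 by over 0.71 of the range. The 76 were the 38 members in each of Control and 1C-MIM. Chance flags about 5% of such groups where they are independent. The members rose and fell together by library, so these groups were not independent, and 9.21% cannot be read against 5%. In 4 of the 7 the library was 1C-MIM 3. There Stat2 had 12.8 CPM against 7.05 to 8.47 in the other 1C-MIM libraries, and Irf1 had 15.8 CPM against 11.0 to 11.9. In the same library Gbp3 had 9.86 CPM against 4.40 to 5.64, and Cmpk2 had 4.22 CPM against 2.76 to 3.04. The remaining 3 lay elsewhere. Control 5 was the highest Control library for Ifi35 with 17.7 CPM against 15.2 to 15.9, which widens the difference between the groups, and the lowest for Dtx3l with 11.8 CPM against 14.99 to 16.2. 1C-MIM 5 was the highest of its group for Oas1a with 0.827 CPM against 0.515 to 0.598.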

How the results depend on the processing

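Of the 38 members, 30 kept their side of the threshold under every alternative that tested them, 7 gained a call under at least 1 and Zbp1 alone lost one; no call changed direction. With single libraries left out, 3 to 7 members were lower and 0 to 1 higher (Rsad2, without Control 3), and over all genes 739 to 1558 were higher and 941 to 1885 lower. Without Control 1 and Control 5 together 1 member was higher (Ifi44), and over all genes 832 were higher and 976 lower. Library totals gave 606 genes higher and 2896 lower. With the replicate number as a block, 2 members were higher (Ifit2 and Rsad2) and 6 lower, and over all genes 1932 were higher and 1965 lower. Whether same-numbered libraries shared more than a number was not given in the sources used here. Their deviations from group means correlated at -0.0752 to 0.387, and not every library correlated best with its own number. A factor shared by number was not tested. A filter of 1 CPM in 5 libraries gave no value for Oas1a, Mx1, Mx2 and Ifi44, which it removes. The causes of these shifts were not tested. Counts of 8 to 60 reads per library for Ifi44, Mx1, Mx2, Oas1a, Zbp1 and Herc6 limit what could be seen there.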
